A study of Mus musculus with 6 samples.

Results

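The genes described here encode the machinery that copies DNA in S phase. They were 51 genes given as a list: the origin recognition complex, licensing factors, the MCM helicase and its activators, primase and the replicative polymerases, the sliding clamp with its loader and processing enzymes, the single-strand binding protein RPA, enzymes of nucleotide supply, and the cyclin E and E2F genes that control entry into S phase. Each gene was represented by its probe set with the highest mean signal among those mapped to that gene alone, and all 51 were measured, out of 19938 genes in the table. No signal filter was applied, so no gene of the list was dropped.

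Expression was measured with Affymetrix arrays in mouse cells of 3 populations, with 2 arrays each. All 3 populations descend from bone marrow cells transduced with Nup98-HoxB4, a fusion protein that lets blood progenitors multiply in culture, so no group without the fusion was compared. The HSC group was expanded in culture with IL6 and SCF, the ProT group was cultured with IL7 and the Notch ligand DLL4, and the DP group consisted of CD4 and CD8 double positive thymocytes that arose after such ProT cells were injected into Rag2-/- mice. Those hosts cannot rearrange antigen receptor genes but still have thymic stroma and myeloid cells. The DP cells thus came from an animal and the other populations from culture, and stage and environment cannot be told apart. The labels do not say whether replicates were separate cultures or animals, so the spread behind each p-value may be partly or wholly technical.

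DNA replication begins when the origin recognition complex, with CDC6 and CDT1, loads the ring of MCM2 to MCM7 onto origins in G1. Cyclin E with CDK2 and the kinase CDC7 then let CDC45 and the GINS proteins join the ring and start unwinding, and polymerases alpha, delta and epsilon copy the strands behind it. Many of these genes are transcribed under E2F factors, which are held in check by the retinoblastoma proteins until a cell commits to divide. In the thymus, double positive cells divide as large blasts after beta-selection and then become small resting cells that rearrange the T cell receptor alpha locus.

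The median probe set signal of an array was 6.73 to 6.91 on the log2 scale, and replicate arrays had Pearson correlations of 0.991 (HSC), 0.995 (ProT) and 0.997 (DP). Defining markers fitted the labels in part. In DP arrays 7 of 7 measured double positive thymocyte markers were higher than in ProT, with Cd4 at 12.87 and 12.84 in DP against 6.06 and 5.94 in ProT. All 8 measured early T markers were higher in ProT than in HSC, and 8 of 8 progenitor markers were lower in DP than in HSC. The HSC arrays carried myeloid markers, with 6 of 6 measured lower in both ProT and DP than in HSC. Mpo stood at 13.13 and 13.13 in HSC, 9.76 and 8.16 in ProT and 7.62 and 7.45 in DP. The ProT arrays also carried mast cell and NK markers (4 of 5 and 5 of 5 higher than in HSC), and Cd34 stood at 12.62 and 12.77 in ProT against 12.77 and 12.74 in HSC. In DP arrays 6 of 6 thymic epithelium markers, 4 of 4 B cell markers and 5 of 6 macrophage markers were higher than in ProT, with the thymic chemokine gene Ccl25 at 10.88 and 10.80 in DP against 7.07 and 7.35 in ProT. The defining epithelial gene Foxn1 had 6.38 and 6.36 in DP, under the median gene value of 7.17, against 5.57 and 5.6 in ProT. The part of such cells in the changes below was not tested.

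Most replication genes were lower in DP than in either cultured population. Against ProT, 32 of 51 genes fell (62.7%, where 18.1% of all genes were called lower) and 3 rose (5.88%, against 14.5% of all genes), at a Benjamini-Hochberg adjusted p below 0.05 from limma over all 19938 genes. The median log2 change of the list was -0.58, beside 0.02 over all genes. Both DP arrays lay below both ProT arrays at 41 of the 51 genes (80.4%), which held for 32.9% of all genes, and above both at 5 (9.80%, against 36.1% of all genes). Falls of at least 2-fold numbered 9 of 51, where 7.12% of all genes passed. Rises of that size numbered 1 of 51, where 4.41% of all genes passed. In bulk RNA, fewer cells in S phase and less of these transcripts per cell cannot be told apart. Of these calls, 22 falls and 1 rise were kept whichever array was left out.

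More of the genes passed in DP against HSC, where 42 of 51 fell (82.4%, against a background of 18.8%, the share of all genes called the same way) and 2 rose (3.92%, background 16.0%), with a median log2 change of -0.82 and of 0.02 over all genes. Falls of at least 2-fold numbered 18 of 51, where 8.66% of all genes passed. Rises of that size numbered 1 of 51, where 5.12% of all genes passed. Both DP arrays lay below both HSC arrays at 44 genes (86.3%, background 32.1%) and above both at 3 (5.88%, background 35.8%). Fewer genes passed in ProT against HSC, where 9 of 51 genes fell (17.6%, background 6.90%) and 0 rose (background 7.85%), with a median of -0.24 and of -0.01 over all genes. At least 2-fold falls and rises were both 0, where 2.70% and 3.47% of all genes passed. Both ProT arrays lay below both HSC arrays at 33 genes (64.7%, background 27.0%) and above both at 1 (1.96%, background 25.1%). That count of 9 became 4 without HSC replicate 2, 2 without ProT replicate 1, and 3 without either DP array, but 13 without HSC replicate 1 or ProT replicate 2 and 16 after median centring. Orc1 and E2f8 were the genes that kept their call under every such omission.

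The mean signals ran in the order HSC, ProT, DP from high to low for 38 of 51 genes (74.5%), an order seen in 20.9% of all genes. For 5 genes ProT was highest and DP lowest (9.8%, against 14.7% of all genes). DP was highest for 4 genes (Orc4, Orc5, Pcna and E2f2), all in the order DP, HSC, ProT (7.84%, against 20.1% of all genes). The order DP, ProT, HSC was seen for 0 of the 51 genes and 22.6% of all genes. A contrast of ProT with the midpoint of HSC and DP placed ProT above it at 15 genes (29.4%, background 11.8%) and below it at 2 (3.92%, background 9.17%). These 17 genes, where 21.0% of all genes were off the midpoint in either direction, became 2 without DP replicate 2, 3 without DP replicate 1, 3 without ProT replicate 1, 10 without ProT replicate 2 and 12 with the replicate number as a block.

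**Figure D1:**
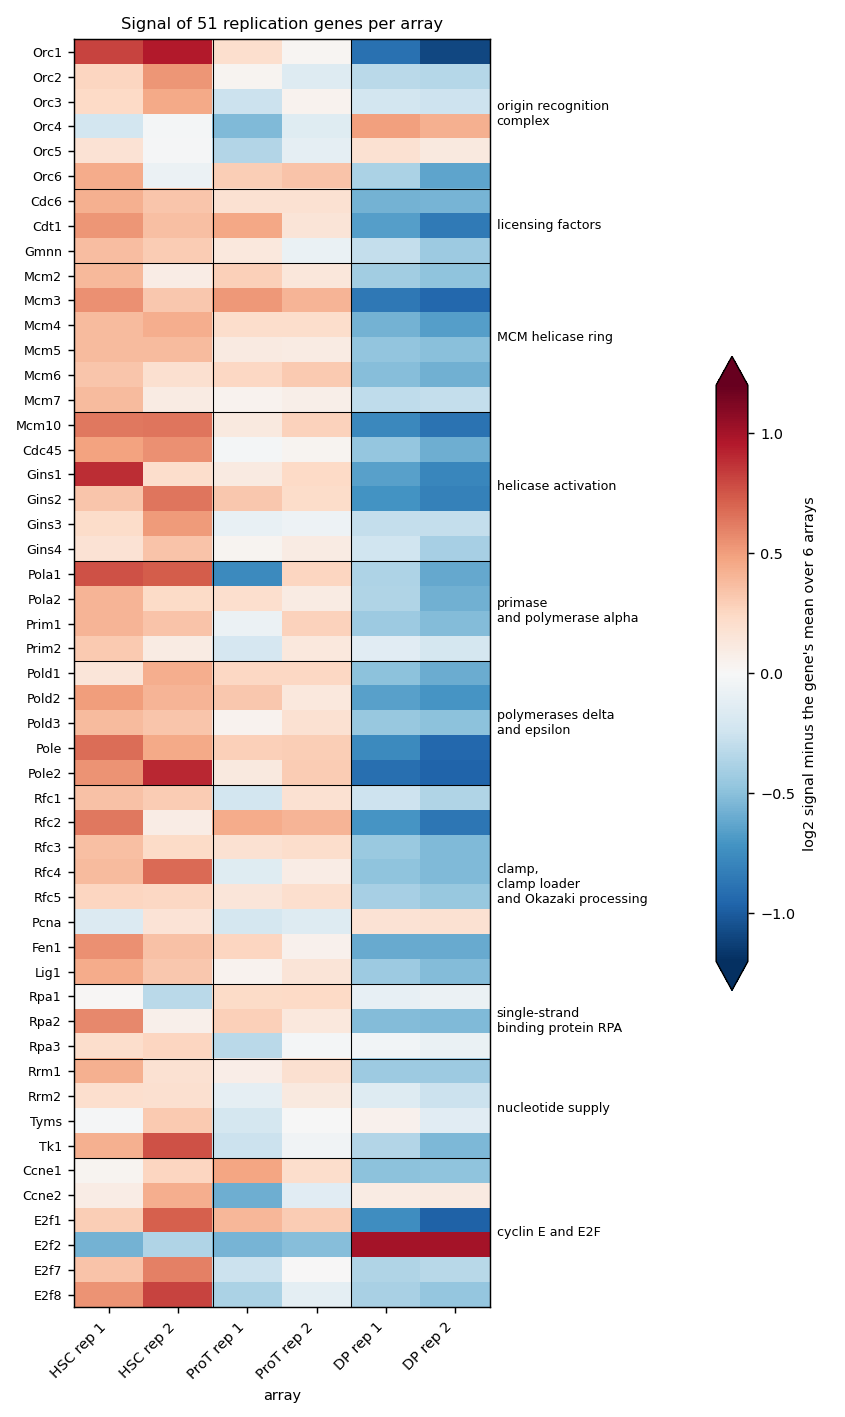
Log2 signal of each replication gene on each array (columns, by population and replicate) after subtracting the gene's mean over the 6 arrays, with rows grouped by role, red above the mean and blue below it. Most rows run to blue in both DP columns, while E2f2, Orc4, Orc5 and Pcna run the other way, and Pola1 differs between the ProT arrays.

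The promoters of these genes were read for letters that E2F factors bind. RefSeq windows of 300 bases (250 before and 50 after an annotated start, GRCm38.p6) were found for 42 of the 51 genes. The E2F letters searched were TTTCCCGC, TTTGGCGC, TTTCGCGC and TTTGCCGC on either strand, which can overlap each other where TTTCGCGC on one strand meets TTTGGCGC on the other. At least 1 of them was present for 17 of 42 genes (40.5%), against 3.54% of 15012 protein-coding genes measured on the array and 2.60% of all 27025 genes with a window. The CCAAT box, searched as CCAAT, was present for 61.9% of the 42 genes and 41.8% of the protein-coding genes, and the cell cycle homology letters TTTGAA or TTCGAA for 21.4% and 19.1%. The windows of the list had a median GC content of 61.3%, beside 57.7% for the protein-coding genes, and a match is a description of the sequence, not a shown binding site.

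E2F letters were found at 11 of 25 genes with a window that fell in DP against ProT, at 1 of 3 that rose and at 5 of 14 that did not pass. Windows of 7 genes show the letters in capitals. They are the 5 genes with more than 1 match (Mcm3, Mcm5, Mcm6, Mcm7 and Rfc3, of which Mcm7 did not pass in DP against ProT), with Orc1, whose fall was among the largest, and E2f2, which rose. An annotated start can lie inside a gene. For 36 of the 42 genes a window covered the gene's annotated 5′ end. Of those 36, 15 held the letters in that window or in another. For Lig1 the letters lay only in a window whose start is 1651 bases inside the gene. The Orc1 window does not cover the 5′ end of its gene, since its start lies 3749 bases inside the annotated gene. Each window is written on the gene's own strand, 5′ to 3′, so that a match on the opposite strand appears reversed and complemented.
Mcm3 (chr1:20820263-20820562, minus strand): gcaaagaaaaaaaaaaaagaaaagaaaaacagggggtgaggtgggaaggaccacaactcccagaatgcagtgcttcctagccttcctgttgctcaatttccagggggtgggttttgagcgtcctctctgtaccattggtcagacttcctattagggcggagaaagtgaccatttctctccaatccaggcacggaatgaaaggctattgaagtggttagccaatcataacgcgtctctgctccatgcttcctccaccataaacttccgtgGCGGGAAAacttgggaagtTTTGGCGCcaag
Mcm5 (chr8:75109259-75109558, plus strand): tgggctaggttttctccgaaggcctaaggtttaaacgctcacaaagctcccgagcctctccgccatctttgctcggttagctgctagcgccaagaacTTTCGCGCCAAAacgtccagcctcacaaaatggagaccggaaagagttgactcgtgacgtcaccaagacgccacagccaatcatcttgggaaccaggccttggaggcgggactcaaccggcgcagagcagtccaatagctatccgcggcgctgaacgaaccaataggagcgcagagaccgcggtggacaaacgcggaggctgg
Mcm6 (chr1:128359656-128359955, minus strand): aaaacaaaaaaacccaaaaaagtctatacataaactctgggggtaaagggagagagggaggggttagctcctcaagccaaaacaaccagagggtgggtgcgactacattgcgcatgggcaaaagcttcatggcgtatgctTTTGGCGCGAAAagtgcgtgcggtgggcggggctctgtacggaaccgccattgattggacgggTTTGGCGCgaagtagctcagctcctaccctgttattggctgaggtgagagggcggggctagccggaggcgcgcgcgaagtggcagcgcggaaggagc
Mcm7 (chr5:138171834-138172133, minus strand): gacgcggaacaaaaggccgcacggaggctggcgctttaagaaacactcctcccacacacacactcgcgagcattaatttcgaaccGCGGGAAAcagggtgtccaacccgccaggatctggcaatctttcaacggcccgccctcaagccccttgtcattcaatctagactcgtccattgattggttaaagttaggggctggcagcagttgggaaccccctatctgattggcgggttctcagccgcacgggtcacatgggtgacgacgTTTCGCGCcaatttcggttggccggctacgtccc
Rfc3 (chr5:151651159-151651458, minus strand): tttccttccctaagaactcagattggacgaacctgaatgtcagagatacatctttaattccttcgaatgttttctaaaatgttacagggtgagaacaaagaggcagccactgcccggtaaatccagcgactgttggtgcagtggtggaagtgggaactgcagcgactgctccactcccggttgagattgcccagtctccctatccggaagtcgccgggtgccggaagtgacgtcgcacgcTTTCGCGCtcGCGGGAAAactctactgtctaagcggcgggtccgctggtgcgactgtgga
Orc1 (chr4:108579204-108579503, plus strand): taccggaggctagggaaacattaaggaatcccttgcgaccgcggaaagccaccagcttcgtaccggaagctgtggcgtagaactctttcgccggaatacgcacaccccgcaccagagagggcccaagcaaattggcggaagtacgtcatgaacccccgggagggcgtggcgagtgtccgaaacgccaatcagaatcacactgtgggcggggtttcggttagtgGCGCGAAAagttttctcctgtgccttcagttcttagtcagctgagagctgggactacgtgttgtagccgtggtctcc
E2f2 (chr4:136172024-136172323, plus strand): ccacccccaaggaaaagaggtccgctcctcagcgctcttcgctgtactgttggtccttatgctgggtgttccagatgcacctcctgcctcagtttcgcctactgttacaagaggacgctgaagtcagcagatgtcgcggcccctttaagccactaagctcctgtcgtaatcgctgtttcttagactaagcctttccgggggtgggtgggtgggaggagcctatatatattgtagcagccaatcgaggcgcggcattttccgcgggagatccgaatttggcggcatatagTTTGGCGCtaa
In Mcm5 and Mcm6 the capitals include an overlapping pair of matches, 1 on each strand, and Mcm6 carries a further match closer to its start. In Mcm3 both matches lie downstream of the start, at bases 20 and 39 counted from it, and in E2f2 the single match lies at base 40, while a second annotated start of E2f2 had none. In Mcm7 1 match lies upstream and 1 downstream of the start, and a second annotated start had none. That first Mcm7 start lies 228 bases inside the annotated gene, so its upstream match is inside the gene too. The windows of Pcna, Rrm2, Tyms and Tk1 held none of these letters, which says only that these exact letters are not in those windows. The E2f1 window, which also held none, surrounds a start 466 bases inside the gene and does not reach its 5′ end.

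The origin recognition complex split between its subunits. Orc1, the ATPase subunit that comes and goes with the cell cycle in mammalian cells, had log2 signals of 8.78 and 8.92 in HSC, 8.17 and 7.99 in ProT and 7.07 and 6.87 in DP. The populations do not overlap, and each step down passed the test. It fell 2.16-fold in DP against ProT (log2 change -1.11 ± 0.11 SE, adjusted p = 0.000917), 1.70-fold in ProT against HSC (adjusted p = 0.00777) and 3.68-fold in DP against HSC (adjusted p = 0.000103), the largest fall of the list in that comparison. Its DP mean of 6.97 lay under 7.17, the median of all gene values, and whether such a signal is above background was not tested. Orc6, the smallest subunit, had 9.43 and 9.18 in DP against 10.10 and 10.15 in ProT and fell by 0.82 on the log2 scale (adjusted p = 0.0182), a call that was lost without any 1 of the DP or ProT arrays (adjusted p between 0.0644 and 0.135). Its fall of 0.69 against HSC was lost without any array other than HSC replicate 2.

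Orc4 and Orc5, core subunits of the same complex, rose instead. Orc4, an ATPase-family subunit of the core, had 9.60 and 9.53 in DP against 8.58 and 8.96 in ProT, and rose 1.74-fold (log2 change 0.80 ± 0.14, adjusted p = 0.00792). It rose against HSC as well (0.58 ± 0.14, adjusted p = 0.0232), where the arrays had 8.89 and 9.08. Both DP arrays exceeded all 4 others. Orc5 had 9.35 and 9.29 in DP against 8.82 and 9.06 in ProT and 9.34 and 9.16 in HSC, so DP overlapped HSC. Its rise of 0.38 ± 0.11 against ProT was at the edge of the test (adjusted p = 0.0487, but 0.0783 with the replicate number as a block and 0.0770 with a trended robust prior). Without either DP array neither rise passed against ProT (adjusted p = 0.0705 and 0.0595 for Orc4, 0.207 and 0.169 for Orc5), nor did that of Orc5 without ProT replicate 1 (0.198) or that of Orc4 against HSC without either DP array or HSC replicate 1. Orc2 and Orc3 did not pass against ProT (log2 changes of -0.27 and -0.13) and fell against HSC by 0.73 and 0.59 on the log2 scale, and the Orc3 call was lost without either DP array or HSC replicate 2.

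The licensing factors fell together in DP, 3 of 3 against ProT (background 18.1%) and 3 of 3 against HSC (background 18.8%). Cdt1, which brings the MCM ring to origins, had 10.94 and 10.77 in HSC, 10.88 and 10.57 in ProT and 9.75 and 9.56 in DP. The cultured populations overlap with each other and both exceed DP. Cdt1 fell 2.09-fold against ProT (log2 change -1.07 ± 0.14, adjusted p = 0.00223) and its partner loader Cdc6 fell 1.67-fold (-0.74 ± 0.07, adjusted p = 0.000809), with 8.29 and 8.30 in DP against 9.04 and 9.04 in ProT. Gmnn, which encodes geminin, the inhibitor of CDT1, had 7.28 and 7.13 in DP against 7.69 and 7.49 in ProT and 7.94 and 7.87 in HSC, and fell 1.31-fold against ProT (adjusted p = 0.0342). The Gmnn call against ProT was lost without either DP array or ProT replicate 1 (adjusted p between 0.0793 and 0.196) and after median centring (0.0907).

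Of the MCM ring, 5 of 6 subunits fell in DP against ProT (background 18.1%) and 6 of 6 against HSC (background 18.8%). Mcm3 had 11.22 and 10.99 in HSC, 11.19 and 11.08 in ProT and 9.81 and 9.73 in DP. HSC and ProT arrays interleave, and the whole drop lies between ProT and DP. Its fall of 2.58-fold against ProT (log2 change -1.37 ± 0.10, adjusted p = 0.000333) was the largest of the list in that comparison. Mcm2 had 11.00 and 10.93 in DP against 11.70 and 11.55 in ProT and 11.80 and 11.50 in HSC, and Mcm5 had 11.01 and 10.98 in DP against 11.59 and 11.58 in ProT. Their falls were 1.58-fold for Mcm2 and 1.5-fold for Mcm5, beside 1.78-fold for Mcm6 and 1.77-fold for Mcm4, while Mcm7 had 11.60 and 11.62 in DP against 11.95 and 11.97 in ProT and did not pass (-0.35 ± 0.11, adjusted p = 0.0568). Mcm7 passed with only the DP and ProT arrays in the fit (adjusted p = 0.0132). Leaving out either HSC array repeats that fit for this comparison and is not a separate check. Mcm2 lost its call against ProT without either DP array (adjusted p = 0.0577 and 0.0749) and its call against HSC without DP replicate 2, and Mcm7 lost its fall of 0.53 against HSC without either DP array.

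In ProT against HSC 1 of 6 ring subunits passed, as a fall (background 6.90%). It was Mcm5, with 11.59 and 11.58 in ProT against 11.86 and 11.86 in HSC (-0.28 ± 0.07, adjusted p = 0.0475). That call was lost whichever array was left out (adjusted p between 0.0834 and 0.161). For Mcm2, Mcm3 and Mcm6 the log2 changes were -0.02, 0.03 and 0.02, which are smaller than their SEs of 0.12, 0.10 and 0.08, and each of the 3 took the other sign when some single array was left out, and Mcm3 and Mcm6 also after median centring (-0.05 and -0.06).

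**Figure D2:**
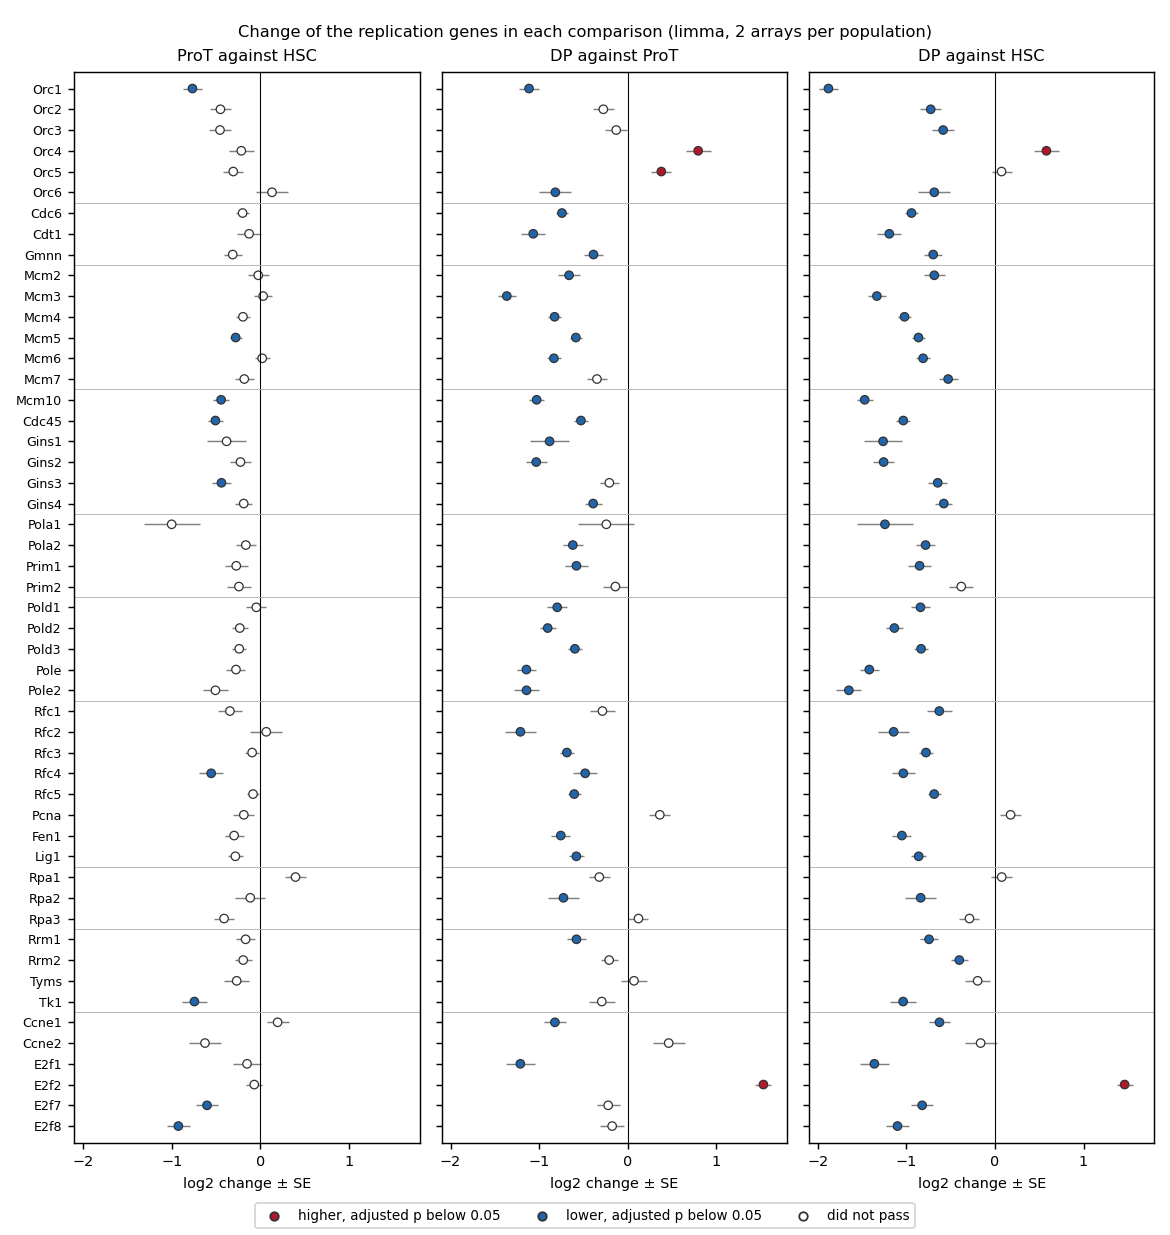
Log2 change of each replication gene (points) with its standard error (bars) in ProT against HSC, DP against ProT and DP against HSC, in the order of the rows of roles from the origin complex to E2F. In DP against ProT 32 points are called lower and 3 higher (E2f2, Orc4 and Orc5), and in ProT against HSC 9 are called lower and 0 higher.

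Genes that turn the loaded ring into a working helicase fell in DP. They were 5 of 6 against ProT (background 18.1%) and 6 of 6 against HSC (background 18.8%). Mcm10, an initiation factor needed when the helicase is switched on, had 10.12 and 10.13 in HSC, 9.60 and 9.76 in ProT and 8.71 and 8.60 in DP. No arrays overlap between populations. It fell 2.04-fold against ProT (adjusted p = 0.000534) and 2.77-fold against HSC (adjusted p = 0.000107). Gins2, a GINS subunit, averaged 9.02 ± 0.07 in DP and 10.05 ± 0.08 in ProT (SD, n = 2 each), a fall of 2.05-fold (adjusted p = 0.00161), and Gins1 fell 1.84-fold with a wider error (-0.88 ± 0.22, adjusted p = 0.0258).

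Cdc45, which joins GINS and the MCM ring, stepped down by like amounts at each stage. Its signals were 10.18 and 10.24 in HSC, 9.67 and 9.73 in ProT and 9.23 and 9.11 in DP. The log2 change was -0.51 ± 0.08 in ProT against HSC (adjusted p = 0.0108) and -0.53 ± 0.08 in DP against ProT (adjusted p = 0.00454). Mcm10 (-0.44 ± 0.09) and Gins3 (-0.44 ± 0.11) also fell in ProT against HSC, and Gins3 was the gene of this group that did not pass in DP against ProT (-0.21 ± 0.11). Cdc45 lost its call in ProT against HSC without ProT replicate 1 (adjusted p = 0.0598), Mcm10 without HSC replicate 2, ProT replicate 1 or either DP array, and Gins3 without any array other than HSC replicate 1. Gins1 and Gins4 (a 1.31-fold fall) lost their calls in DP against ProT without any 1 of the DP or ProT arrays, Gins4 also after median centring, and Gins1 lost its call against HSC without DP replicate 2.

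Polymerase alpha with primase starts each new strand. Of its genes, 2 of 4 fell in DP against ProT (background 18.1%) and 3 of 4 against HSC (background 18.8%). Pola2, its regulatory subunit, and Prim1, the catalytic primase subunit, fell by 0.62 and 0.58 on the log2 scale in DP against ProT (adjusted p = 0.00813 and 0.0176). Pola1, the catalytic polymerase subunit, had 8.46 and 9.48 in ProT, the widest gap between replicates of any gene of the list, beside 9.99 and 9.95 in HSC and 8.85 and 8.61 in DP. ProT replicate 1 lay below both DP arrays, and ProT replicate 2 lay between the DP and HSC arrays. Its log2 change in DP against ProT was -0.24 ± 0.32 (adjusted p = 0.639), but -0.75 without ProT replicate 1 (adjusted p = 0.0148) and 0.27 without ProT replicate 2 (adjusted p = 0.221). In ProT against HSC it was -1.0 ± 0.32 (adjusted p = 0.101), and -1.51 without ProT replicate 2 (adjusted p = 0.00310). Pola1 fell 2.37-fold in DP against HSC (adjusted p = 0.0267), a call lost without any 1 of those 4 arrays. Prim1 lost its call against ProT without either DP array and Pola2 without DP replicate 2, and Prim2, the large primase subunit, passed in none of the comparisons with all arrays. Its change of -0.38 ± 0.14 in DP against HSC passed without either ProT array (adjusted p = 0.0452).

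ProT replicate 1 differed from replicate 2 in a similar way at several genes outside the list. The proliferation marker Mki67 had 10.42 and 11.76 in ProT, the kinetochore motor Cenpe 7.28 and 9.18, and the kinetochore protein Cenpf 7.44 and 8.49. Within the list, ProT replicate 2 was the higher array at 34 of 51 genes, beside 8290 of all 19938 genes. The gap between the ProT arrays exceeded 0.3 at 8 of the 51 replication genes, at 13 for HSC and at 0 for DP. The median gap of the list was 0.218 in HSC, 0.144 in ProT and 0.074 in DP. Over all genes it was 0.119, 0.1 and 0.08 in the same order. Without ProT replicate 1, 29 replication genes were called lower and 2 higher in DP against ProT.

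The polymerases that do the bulk of copying fell throughout, 5 of 5 against ProT (background 18.1%) and 5 of 5 against HSC (background 18.8%). All of these calls were kept when any array was left out. Pole, the catalytic subunit of polymerase epsilon on the leading strand, had 10.91 and 10.69 in HSC, 10.52 and 10.53 in ProT and 9.47 and 9.29 in DP. Pole2, its second subunit, had 10.54 and 10.91 in HSC, 10.12 and 10.31 in ProT and 9.10 and 9.04 in DP. For both genes the arrays of the 3 populations do not overlap, and the wider gap lies between ProT and DP. Each fell 2.21-fold in DP against ProT (adjusted p = 0.000715 for Pole and 0.00199 for Pole2), and Pole2 fell 3.14-fold against HSC. The polymerase delta genes of the lagging strand fell by 0.90 (Pold2), 0.80 (Pold1, the catalytic subunit) and 0.60 (Pold3) on the log2 scale against ProT. At the earlier step, ProT against HSC, 0 of the 5 genes passed, with log2 changes between -0.51 and -0.05. Pole2 passed there without HSC replicate 1 (-0.69, adjusted p = 0.0132) and after median centring (-0.59, adjusted p = 0.0497), and Pold3 after median centring (-0.32, adjusted p = 0.0493). Elsewhere in the list, falls in ProT against HSC appeared after median centring for Orc2, Orc3, Cdc6, Lig1 and Rpa3 (adjusted p between 0.0378 and 0.0488), without HSC replicate 1 for Orc2, Orc3 and Pcna (0.0201 to 0.0484), without HSC replicate 2 for Gins1 (0.0136) and without ProT replicate 2 for Orc3, Prim1, Rfc1 and Rpa3 (0.0207 to 0.0480).

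The sliding clamp was not among the genes that fell. Pcna, the ring that tethers polymerases to DNA, had 12.46 and 12.79 in HSC, 12.41 and 12.47 in ProT and 12.80 and 12.81 in DP. Both DP arrays lay above both ProT arrays, and the HSC arrays lay between the lower ProT and the lower DP array. Its log2 change in DP against ProT was 0.36 ± 0.12 and did not pass (adjusted p = 0.0665). It passed as a rise without either HSC array (adjusted p = 0.0130), after quantile normalization (0.43, adjusted p = 0.0380), after median centring (0.48, adjusted p = 0.0311) and with a trended robust prior (adjusted p = 0.0386). A second Pcna probe set gave the same log2 difference of 0.36, with nearly the same signal on every array (12.79 and 12.8 in DP, 12.39 and 12.47 in ProT). Whether these probe sets read separate sequence was not tested. The reference lists processed copies of this gene (Pcna-ps1 and Pcna-ps2), and whether they add to the signal was not tested.

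Around the clamp, 6 of 8 genes of the group fell in DP against ProT (background 18.1%). Rfc2, a small subunit of the clamp loader, had 8.90 and 8.74 in DP against 10.05 and 10.01 in ProT and 10.24 and 9.70 in HSC, and fell 2.31-fold against ProT (adjusted p = 0.00388). Fen1, the nuclease that trims Okazaki fragments, had 8.57 and 8.57 in DP against 9.43 and 9.22 in ProT and fell 1.69-fold (adjusted p = 0.00349), and Lig1, the ligase that seals them, fell 1.49-fold (adjusted p = 0.00392). Rfc3 fell 1.61-fold, Rfc5 1.52-fold and Rfc4 1.39-fold, and the large loader subunit Rfc1 did not pass (-0.29 ± 0.14). In ProT against HSC Rfc4 alone of the group passed, with 11.65 and 11.89 in ProT against 12.18 and 12.48 in HSC, and 11.32 and 11.27 in DP (-0.56 ± 0.13, adjusted p = 0.0437). Rfc4 lost its call against ProT without either DP array or ProT replicate 2, after median centring and after quantile normalization, and its call in ProT against HSC without HSC replicate 2, ProT replicate 1 or either DP array. Rfc1 passed against ProT without ProT replicate 1 (-0.48, adjusted p = 0.0258) and lost its fall of 0.63 against HSC without either DP array or HSC replicate 1.

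RPA, the trimer that coats unwound strands and also serves repair, showed 1 fall among its 3 genes in DP against ProT, which with so few genes cannot be read against the background of 18.1%. Rpa2, the subunit that checkpoint kinases modify, had 9.60 and 9.59 in DP against 10.40 and 10.24 in ProT and fell 1.65-fold (adjusted p = 0.0228). That call was lost without any 1 of those 4 arrays (adjusted p between 0.0525 and 0.133), and its fall of 0.84 against HSC without either DP array. Rpa1, the large DNA-binding subunit, had 10.66 and 10.32 in HSC, 10.88 and 10.89 in ProT and 10.55 and 10.58 in DP, and passed in none of the comparisons with all arrays. It passed as a rise in ProT against HSC without HSC replicate 1 (0.57, adjusted p = 0.00931) and as a fall in DP against ProT without either HSC array (adjusted p = 0.0173). Rpa3 did not pass with all arrays either, with 10.25 and 10.21 in DP against 9.96 and 10.26 in ProT.

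Of the genes of nucleotide supply, 1 of 4 fell in DP against ProT (25.0%, near the background of 18.1%) and 3 of 4 against HSC (75.0%, background 18.8%). Rrm1, the large subunit of ribonucleotide reductase, had 11.62 and 11.62 in DP against 12.14 and 12.25 in ProT and fell 1.49-fold (adjusted p = 0.00845), a call lost without either DP array. Rrm2, the small subunit that is made in S phase, had 11.87 and 11.86 in HSC, 11.56 and 11.78 in ProT and 11.51 and 11.41 in DP. Its change of -0.21 ± 0.10 against ProT did not pass, and it fell 1.32-fold against HSC (adjusted p = 0.0226), which was lost without any 1 of the HSC or DP arrays and after quantile normalization (adjusted p = 0.0587). Tyms, thymidylate synthase, had 10.77 and 10.58 in DP against 10.5 and 10.71 in ProT and 10.70 and 11.03 in HSC, and passed in no comparison.

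Tk1, the thymidine kinase of dividing cells, passed at the first step. It had 10.59 and 10.93 in HSC, 9.91 and 10.12 in ProT and 9.81 and 9.63 in DP. HSC stands above both other populations. Tk1 fell 1.68-fold in ProT against HSC (adjusted p = 0.0215), a call lost without HSC replicate 2, ProT replicate 1 or either DP array, and its change of -0.29 ± 0.14 in DP against ProT did not pass (adjusted p = 0.191). A second Tk1 probe set, the more variable of the 2, had 10.77 and 10.83 in HSC, 9.88 and 10.13 in ProT and 9.57 and 9.39 in DP. With that probe set the DP against ProT change was -0.53 and passed (adjusted p = 0.0175). Whether the 2 probe sets read separate sequence was not tested.

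The E2F genes themselves diverged. E2f1, an activating E2F that drives the S phase genes, had 10.35 and 10.78 in HSC, 10.46 and 10.36 in ProT and 9.31 and 9.09 in DP. E2f2, the other activating E2F of the list, had 8.92 and 9.12 in HSC, 8.93 and 8.97 in ProT and 10.48 and 10.48 in DP. For both genes HSC and ProT overlap and DP stands apart, below for E2f1 and above for E2f2. E2f1 fell 2.32-fold in DP against ProT (log2 change -1.21 ± 0.16, adjusted p = 0.00258), and E2f2 rose 2.89-fold (1.53 ± 0.09, adjusted p = 0.000129). Against HSC the log2 changes were -1.36 ± 0.16 for E2f1 and 1.46 ± 0.09 for E2f2, and all 4 of these calls were kept under every array left out. E2f2 was the 1 gene of the list that rose at least 2-fold in DP.

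The atypical repressors E2f7 and E2f8, which shut E2F targets off late in S phase, were lower already in ProT. E2f8 had 10.75 and 11.02 in HSC, 9.83 and 10.09 in ProT and 9.82 and 9.75 in DP. ProT and DP lie close together and HSC lies above both. E2f8 fell 1.90-fold in ProT against HSC (-0.93 ± 0.13, adjusted p = 0.0071), the largest called change of the list at that step. E2f7 had 9.22 and 9.48 in HSC, 8.62 and 8.88 in ProT and 8.52 and 8.54 in DP, the same shape. It fell 1.52-fold in ProT against HSC (adjusted p = 0.0294), a call lost without HSC replicate 2, ProT replicate 1 or either DP array. Neither passed in DP against ProT (-0.18 ± 0.13 for E2f8 and -0.22 ± 0.13 for E2f7), and against HSC both fell (2.15-fold and 1.77-fold).

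The cyclin E genes, whose products activate CDK2 at the start of S phase, differed from each other. Ccne1 had 10.05 and 10.28 in HSC, 10.49 and 10.23 in ProT and 9.53 and 9.54 in DP. Ccne2 had 9.16 and 9.51 in HSC, 8.49 and 8.94 in ProT and 9.17 and 9.18 in DP. Ccne1 is lowest in DP, and Ccne2 is lowest in ProT with DP inside the HSC range. Ccne1 fell 1.77-fold in DP against ProT (-0.82 ± 0.12, adjusted p = 0.00422) and 1.54-fold against HSC, the call against HSC being lost without either DP array. For Ccne2 the change in DP against ProT was 0.46 ± 0.18 (adjusted p = 0.11), and it passed with the replicate block (adjusted p = 0.0479) or without ProT replicate 2 (0.69, adjusted p = 0.0349). In ProT against HSC it was -0.63 ± 0.18 (adjusted p = 0.0792), and it passed with the replicate block (adjusted p = 0.0362), without HSC replicate 1 or without ProT replicate 2.

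**Figure D3:**
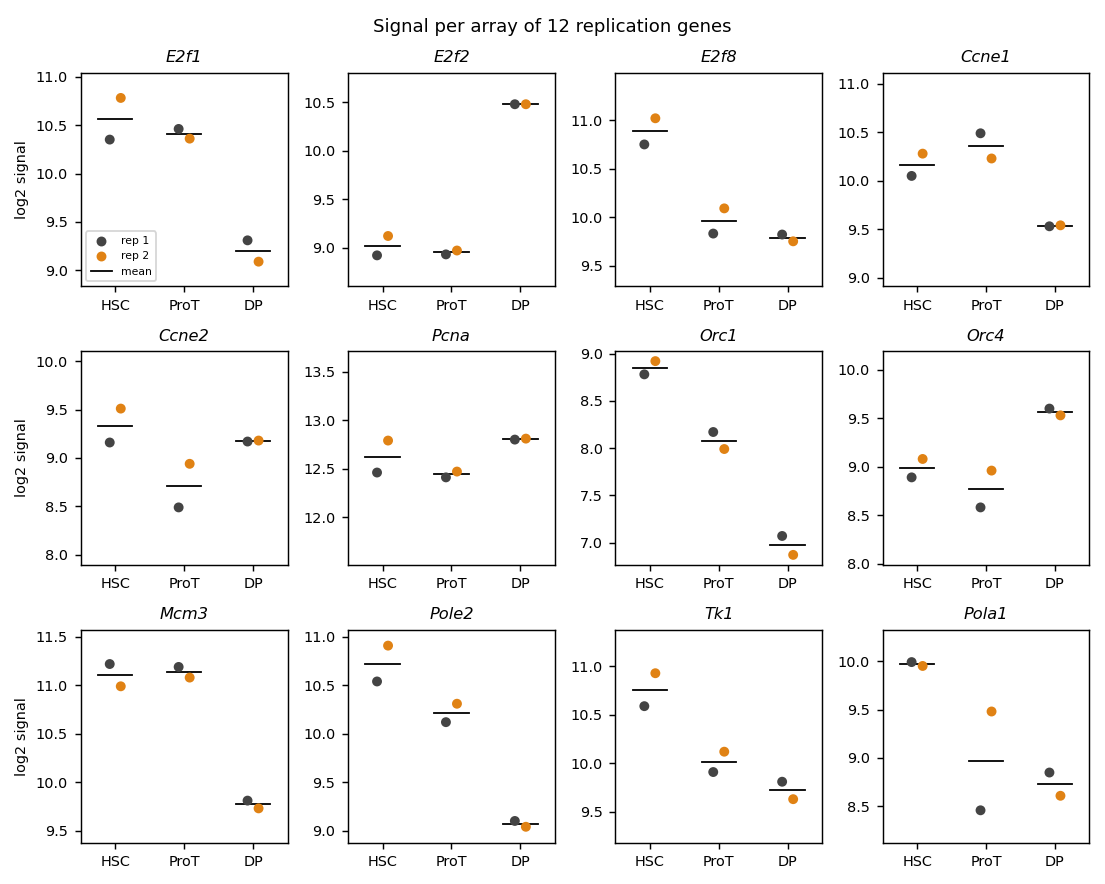
Log2 signal per array of 12 replication genes, with points for replicate 1 and replicate 2 and a line at each population's mean and vertical axes that do not start at 0. E2f1 drops to 9.31 and 9.09 in DP while E2f2 stands at 10.48 on both DP arrays, and the Pola1 points of ProT are 1.02 apart.

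Other genes of DNA replication, from a list of 69 of which 68 were measured, were also lower in DP for the most part. Against ProT 34 of 68 fell in DP (50%) and 6 rose (8.82%), with a median log2 change of -0.41. The backgrounds are 18.1% lower and 14.5% higher, so the rises were a smaller share than among all genes. Set against HSC, DP had 39 falls (57.4%, background 18.8%) and 5 rises (7.35%, background 16.0%). ProT had 7 falls against HSC (10.3%), a share near the background of 6.90%, and 0 rises (background 7.85%). The largest falls against ProT were those of Samhd1, which breaks down deoxynucleotides (-1.78 ± 0.12), Pold4, a small polymerase delta subunit (-1.54 ± 0.14), Mcm8, of a repair helicase (-1.47 ± 0.20), and the E2F genes E2f6 (-1.43 ± 0.12) and E2f3 (-1.40 ± 0.13). Among the rises were Rev3l, the catalytic subunit of translesion polymerase zeta (1.86 ± 0.31), and Dck, deoxycytidine kinase, which salvages nucleosides (1.83 ± 0.14). Dck had 11.46 and 11.44 in DP against 9.42 and 9.81 in ProT, without overlap. Tfdp2, a DNA-binding partner of E2F proteins (0.92 ± 0.12), Rb1, the retinoblastoma gene (0.82 ± 0.24), and Donson, a replisome factor (0.44 ± 0.09), rose as well, while the other partner gene Tfdp1 fell by 0.65 on the log2 scale.

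In ProT against HSC the largest falls of that list were Dna2, a nuclease and helicase of flap processing (-0.99 ± 0.09), Ticrr, which helps load CDC45 (-0.60 ± 0.11), the retinoblastoma relative Rbl1 (-0.58 ± 0.13), the checkpoint mediator Clspn (-0.55 ± 0.09) and E2f6 (-0.49 ± 0.12). Against HSC, DP cells had the largest falls at Mcm8 (-2.0 ± 0.20), E2f6 (-1.92 ± 0.12), Ticrr (-1.67 ± 0.11), Samhd1 (-1.59 ± 0.12) and Dna2 (-1.58 ± 0.09). The rises there were Dck (1.65 ± 0.14), Rev3l (1.52 ± 0.31), Rb1 (0.94 ± 0.24), Tfdp2 (0.93 ± 0.12) and Rbl2, another retinoblastoma relative (0.42 ± 0.09).

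Genes of mitosis, the phase after replication, are given beside these values because they report on cell division as well. Of 23 measured, 12 fell and 0 rose in DP against ProT (52.2%, background 18.1%, median log2 change -0.51), 18 fell and 0 rose in DP against HSC (78.3%, background 18.8%), and 4 fell and 0 rose in ProT against HSC (17.4%, background 6.90%). The mitotic kinase genes Aurka and Aurkb fell by 0.95 and 0.85 on the log2 scale in DP against ProT, the kinesin Kif20a by 0.90 and the cell cycle transcription factor Mybl2 by 0.86. In DP against ProT 5 of the 23 had positive log2 changes, and none of the 5 passed: Cenpe (1.17 ± 0.56, adjusted p = 0.180), Cenpf (1.02 ± 0.32, adjusted p = 0.0563), Mki67 (0.87 ± 0.40, adjusted p = 0.162), Kif11 (0.20) and Ndc80 (0.12). For Cenpe, Cenpf and Mki67 both DP arrays lay above both ProT arrays, with 9.45 and 9.35 in DP for Cenpe and 8.94 and 9.02 for Cenpf, and the ProT arrays are those given above as far apart. Mki67 did not pass in any comparison, with 11.97 and 11.95 in DP against 12.13 and 12.18 in HSC. In ProT against HSC the genes that fell were Cenpf (-1.35 ± 0.32), Mybl2 (-0.98 ± 0.12), Foxm1 (-0.52 ± 0.13) and Aurkb (-0.46 ± 0.11). Between DP and HSC the largest falls were Mybl2 (-1.84 ± 0.12), the spindle checkpoint kinase genes Ttk (-1.60 ± 0.28) and Bub1 (-1.56 ± 0.41), and the kinetochore gene Nuf2 (-1.34 ± 0.20). Whether the replication and mitosis lists differ from each other was not tested.

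**Figure D4:**
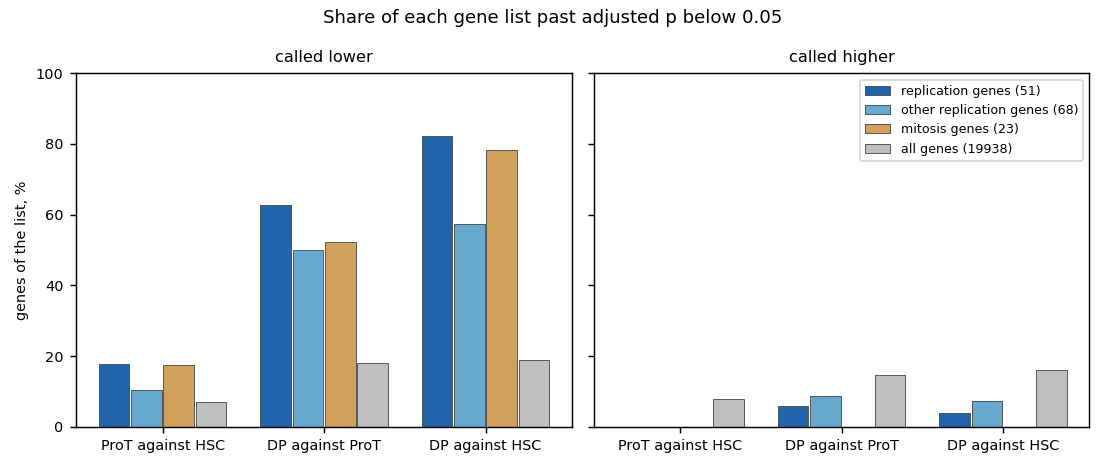
Share of each gene list (bars, in %) called lower (left) or higher (right) at an adjusted p below 0.05 in each comparison, for the 51 replication genes, 68 other replication genes, 23 mitosis genes and all 19938 genes. In DP against ProT 62.7% of the replication genes were called lower, beside 50%, 52.2% and 18.1% of the other sets.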

How the data were processed

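The deposited values are log2 expression per probe set on Affymetrix arrays, which the authors made with RMA and Partek per the submitters' processing notes. Their versions and settings: not given in the sources used here. They were used as deposited. Of 35556 probe sets, 21789 had 1 gene in the platform annotation, 1621 had several and 12146 had none. Each of 19938 genes kept its probe set with the highest mean. Stages were compared with limma 3.58.1 in R 4.3.3, with all 6 arrays in 1 fit and p-values adjusted by Benjamini-Hochberg over all genes. Residual degrees of freedom were 3 and prior degrees of freedom 2.83, so the number of arrays limits the precision. Called means an adjusted p below 0.05. SE is limma's moderated standard error. The fit was tested on simulated data.

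The genes and lists were chosen with earlier results of these data known. All replication genes are named. Values in every array are given for the 5 largest called rises and falls per comparison and for a set of targets. They are also given for most genes going against their role group, but Mcm6 has none and Orc6 and Rpa3 lack HSC values. Up to 5 called rises and 5 called falls per comparison are named from the other replication genes, and up to 4 called genes from the mitosis genes. Mki67, Cenpe, Kif11, Ndc80, Tfdp1 and the values of Cenpf in ProT and in DP against ProT were named after their values were seen.

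Same-numbered replicates did not deviate together (correlations of deviations 0.06, -0.02 and -0.04), so the replicate number was no block. Alternatives were the block, centring each array on its median, quantile normalization, dropping dim genes, other probe set rules, a trended robust prior, fitting only the populations compared, stricter thresholds and leaving out each array. Promoter windows came from RefSeq (GRCm38.p6).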

Additional observations from a re-analysis of the deposited data

How the results depend on the processing

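In DP against ProT, leaving out 1 array gave 22 to 34 replication genes called lower and 1 to 4 higher. Against HSC it gave 32 to 43 lower and 1 to 3 higher, in ProT against HSC 2 to 13 lower and 0 to 1 higher, and off the midpoint 2 to 25. Genes called over the whole array ranged between 1792 and 3982 in ProT against HSC, 3531 and 7408 in DP against ProT, and 4301 and 6934 in DP against HSC. At an adjusted p below 0.01, ProT against HSC had 2 replication genes lower and 1535 genes called, DP against ProT had 4041 genes called, DP against HSC had 1 replication gene higher, and 2 lay off the midpoint. With at least 2-fold change as well, ProT against HSC had 0 lower (2940 genes called without that rule, 1230 with it), DP against ProT 9 lower and 1 higher (2299 genes called), DP against HSC 18 lower and 1 higher (2748 genes called), and 0 lay off the midpoint. Fitting only the populations compared left 3 lower in ProT against HSC, with 1792 genes called. Median centring gave 16 lower there and 11 off the midpoint, and it moved the median of all genes to -0.09 in ProT against HSC and 0.13 in DP against ProT. Among all called genes, 42.0% were higher in ProT against HSC after centring (53.2% as deposited), 60.2% in DP against ProT (44.6%) and 38.4% against the midpoint (56.3%). The causes were not tested.

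No called replication gene changed sign. Changes that did not pass took the other sign in ProT against HSC after median centring for Mcm3 (-0.0507), Mcm6 (-0.0613) and Rfc2 (-0.0155). Leaving out 1 array did so, with these ranges of log2 change in ProT against HSC: Mcm2 -0.17 to 0.13, Mcm3 -0.0844 to 0.147, Mcm6 -0.0474 to 0.0889, Rfc2 -0.20 to 0.34, Rpa2 -0.37 to 0.14, Orc6 -0.13 to 0.39, Pold1 -0.19 to 0.0985, E2f1 -0.37 to 0.0672, E2f2 -0.17 to 0.0308 and Cdt1 -0.28 to 0.0294. In DP against HSC the ranges were -0.0186 to 0.17 for Orc5, -0.0936 to 0.25 for Rpa1 and -0.34 to 0.0141 for Ccne2. In DP against ProT they were -0.0315 to 0.27 for Rpa3, -0.0346 to 0.18 for Tyms, -0.28 to 0.0184 for Orc3, -0.75 to 0.27 for Pola1 and -0.31 to 0.0289 for Prim2. With the replicate number as a block, 8 replication genes were lower in ProT against HSC and 32 in DP against ProT. It ended the calls of Gins3 (adjusted p = 0.0544) and Mcm5 (0.0854) in ProT against HSC and of Orc5 in DP against ProT (0.0783), and Ccne2 passed in both. Where a population was left with 1 array, that array was assumed to vary like the others. Such a lone array adds nothing to the estimate of spread. Leaving out 1 array of the population not compared therefore repeats the fit of only the populations compared, and is not a separate check.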
